A study of Mus musculus with 16 samples.

Results

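The genes described are 34 regulators of the mammalian cell cycle, out of 24421 gene rows in each count table: cyclins, cyclin-dependent kinases (CDKs), CDC25 phosphatases, CDK inhibitors, the retinoblastoma (RB) family and the E2F transcription factors. They were chosen by name from a list of this pathway, with earlier results of these data known. All 34 names were found in both tables. Of these, 19 are activators of cycle progression and 15 are brakes. Their messenger RNA was measured in whole mouse liver in 16 libraries, 4 per group. The double knockout livers (DKO) carried floxed Arid1a and floxed Arid1b alleles with the Alb-Cre transgene, and their controls (libraries WT-7067 to WT-7139) carried both floxed genes without Cre. The single knockout livers (BKO) carried floxed Arid1b with Alb-Cre, and their controls carried floxed Arid1b without Cre. No group lacked ARID1A alone, and age, sex and strain are not given in the labels. The proteins ARID1A and ARID1B replace each other in the BAF chromatin remodelling complex. Alb-Cre is driven by the albumin promoter, which is active in hepatocytes and in their fetal precursors. Which cells lost the genes was not measured here. All knockout livers and no control livers had Cre, so an effect of Cre itself cannot be told apart.

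Cyclins bind and switch on CDKs, and their succession orders the cycle. Cyclins D1, D2 and D3 with CDK4 or CDK6 start the phosphorylation of the RB family proteins in G1, cyclins E with CDK2 complete it, and the E2F factors so released switch on the genes of DNA synthesis. Cyclin A acts with CDK2 in S phase, and cyclins A and B with CDK1 drive the entry into mitosis. The CDC25 phosphatases remove inhibitory phosphates from CDKs, and the INK4 and KIP inhibitors hold CDKs back. E2F1, E2F2 and E2F3 mainly activate transcription, while E2F4 to E2F8 mainly repress it. Adult hepatocytes rarely divide, and they re-enter the cycle when liver mass is lost.

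Total counts were 8699417 to 11031443 in DKO and control libraries together and 21151726 to 40551934 in BKO and control libraries, so a gene at 1 normalized CPM (counts scaled to equal library size) rested on about 10 counts in a DKO library. Levels below are normalized CPM, given as mean ± SD over n = 4 libraries, and folds are ratios of these means. Counts were tested with edgeR's quasi-likelihood test over all genes of a table, and a call needed a Benjamini-Hochberg adjusted p below 0.05. Arid1b, counted over the whole gene, was called lower in both knockouts, and Arid1a was not called in DKO livers (log2 fold change -0.20, adjusted p = 0.149 by edgeR). These counts do not show the floxed exons apart. Libraries DKO-7068 and DKO-7070 were closer to each other than any other pair of their group (chi-square per degree of freedom 7.32, against 35.2 to 60.4). They held the highest level for 8 and 4 of the 15 members called higher in DKO livers. Whether these libraries are independent samples was not tested. Among the hepatocyte markers Alb was the most abundant, and the 9 measured markers summed to at least 74277 CPM in every DKO library, so the tissue carried its labelled identity. Whole liver holds many cell types, and in such bulk libraries fewer cells of a type and less RNA per cell cannot be told apart.

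In livers lacking ARID1A and ARID1B, most activators of the cycle were higher, and the shares of brakes called in either direction were close to those of all genes. Of the 30 members tested in DKO livers, 15 were called higher and 3 lower, while 12 were not called and 4 were too low to be tested. Over all 12848 genes tested, 19.2% were called higher and 16.6% lower. Among the 18 activators tested, 13 were higher and 1, Ccnf, was lower, with a median log2 fold change of 1.10. Ccnf was grouped here with the mitotic cyclins, although its product binds no CDK. Among the 12 brakes tested, 2 were higher, Rbl1 and E2f7, and 2 were lower, Rbl2 and E2f5, with a median of 0.28. The median was 0.67 over all tested members and 0.02 over all genes. Of the 30 tested members, all 4 DKO libraries lay above all 4 controls for 15 and below them for 3, against 18.5% and 16.9% of all genes tested. The untested Cdc25c and Cdkn3 also lay above.

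**Figure D1:**
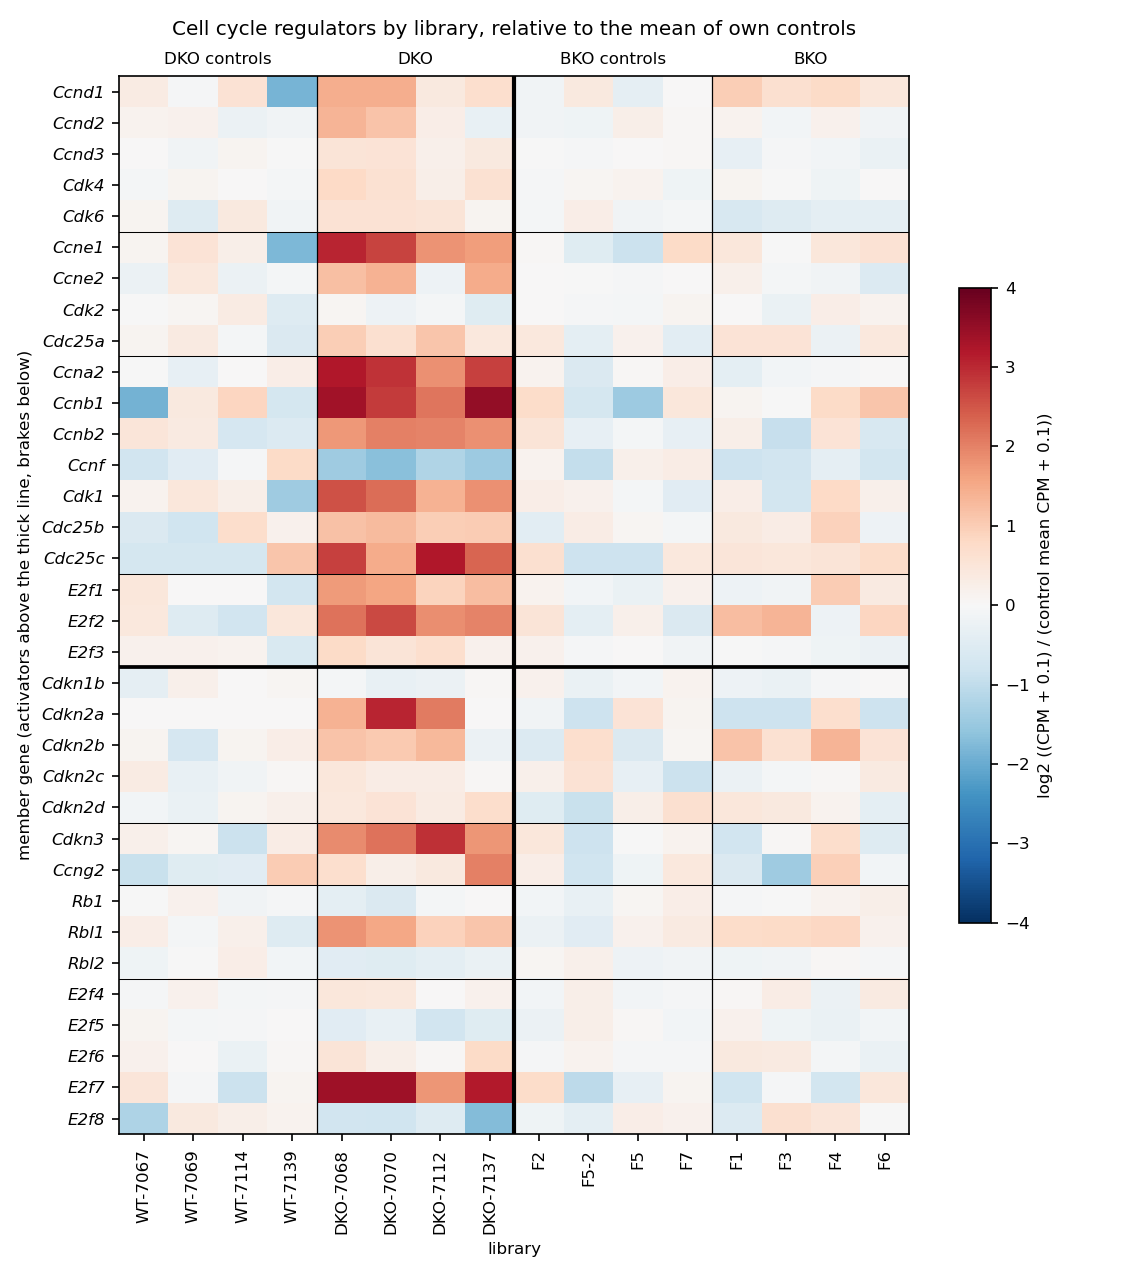
Heat map of the 34 members (rows, by role) in 16 libraries (columns); colour is log2 of normalized CPM over the mean of the own controls, after adding 0.1 CPM to both, on a scale that ends at 4 on either side. Red fills most activator rows in the DKO columns, while Ccnf and E2f8 are blue there, and most of the BKO columns are pale.

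Markers of several cell types other than hepatocytes gained signal in the same libraries. Over all genes tested in DKO livers, 19.2% were called higher and 16.6% lower. All 8 recruited macrophage markers were called higher in DKO livers, and their summed level was 77.6 to 116 CPM against 3.81 to 7.44 CPM in the controls. None of the 8 was at 0 in a DKO library, and up to 3 were at 0 in a control library. Of 9 stellate cell markers 6 were higher and 1 was lower (sums of 1636 to 2484 against 416 to 586 CPM). Of 8 cholangiocyte markers 4 could be tested and 2 were higher (113 to 904 against 37.1 to 60.9 CPM). Of 9 measured hepatocyte markers 5 were lower, and their sum was 74277 to 105251 against 128936 to 156757 CPM. T and NK cell markers summed to 7.46 to 11.9 against 4.26 to 6.97 CPM. Only Cd4 of them was tested, and it was called higher by edgeR but not by voom. B and plasma cell markers summed to 5.83 to 9.27 against 2.35 to 6.21 CPM, and the only gene tested, Jchain, was higher. Neutrophil markers summed to 4.02 to 27.5 against 0.560 to 1.01 CPM, with 2 of 2 tested higher. Kupffer cell markers (2 of 6 higher), endothelial markers (1 higher and 1 lower of 6) and erythroid markers (1 of 2 lower) had sums that overlapped between the groups. Cycling cells of any type express the members, and the part of these other cell types in the results below was not tested.

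Of the 5 D-type cyclin and kinase genes, whose products receive growth signals in G1, Ccnd3 and Cdk4 were called higher and the other 3 were not called. Ccnd3, which encodes cyclin D3 (chromosome 17, 47505051 to 47599691, GRCm38), was at 37.6, 38.1, 30.5 and 34.5 CPM in DKO-7068, DKO-7070, DKO-7112 and DKO-7137, and at 26.4, 24.2, 28.6 and 26.2 CPM in the controls WT-7067, WT-7069, WT-7114 and WT-7139. The groups did not overlap, and Ccnd3 was higher by 1.34-fold (log2 fold change 0.42, SE 0.11, adjusted p = 0.0117 by edgeR). Cdk4, the kinase that cyclin D1 and its relatives switch on (chromosome 10, 127063534 to 127067920), was at 37.1, 32.2, 25.3 and 32.5 CPM against 20.3, 23.0, 21.5 and 20.3 CPM, in the same library order. Every DKO library again lay above every control (log2 fold change 0.58, SE 0.13, adjusted p = 0.00529 by edgeR).

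Ccnd1 encodes cyclin D1, the most abundant D-type cyclin message here, at 56.1 ± 19.95 CPM per kilobase of exon in DKO livers against 26.7 ± 14.2 in controls, where Ccnd2 stood at 2.52 and Ccnd3 at 3.004 CPM per kilobase. It was at 348 and 342 CPM in DKO-7068 and DKO-7070 and at 166 and 202 CPM in DKO-7112 and DKO-7137, against 156, 123, 190 and 34.4 CPM in the controls. The first pair stood above all controls, the other pair within or near their range, and the gene was not called (log2 fold change 1.07, SE 0.48, adjusted p = 0.123 by edgeR). DESeq2 called it, and so did the fit of all 16 libraries. Ccnd2, the cyclin D2 gene, had the same shape, with 61.2, 52.2, 28.7 and 19.2 CPM against 20.2 to 26.8 CPM in controls (log2 fold change 0.77, adjusted p = 0.111 by edgeR). Without DKO-7137, its lowest DKO library, Ccnd2 passed (0.99, adjusted p = 0.0124). Cdk6, the second cyclin D kinase, was at 23.3 to 32.3 CPM against 15.1 to 28.4 CPM (log2 fold change 0.46, adjusted p = 0.0808 by edgeR). Cdk6 passed without DKO-7137 (0.55, adjusted p = 0.0460) or without WT-7114 (0.61, adjusted p = 0.0284). It also passed with total-count scaling and in the fit of all 16 libraries.

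**Figure D2:**
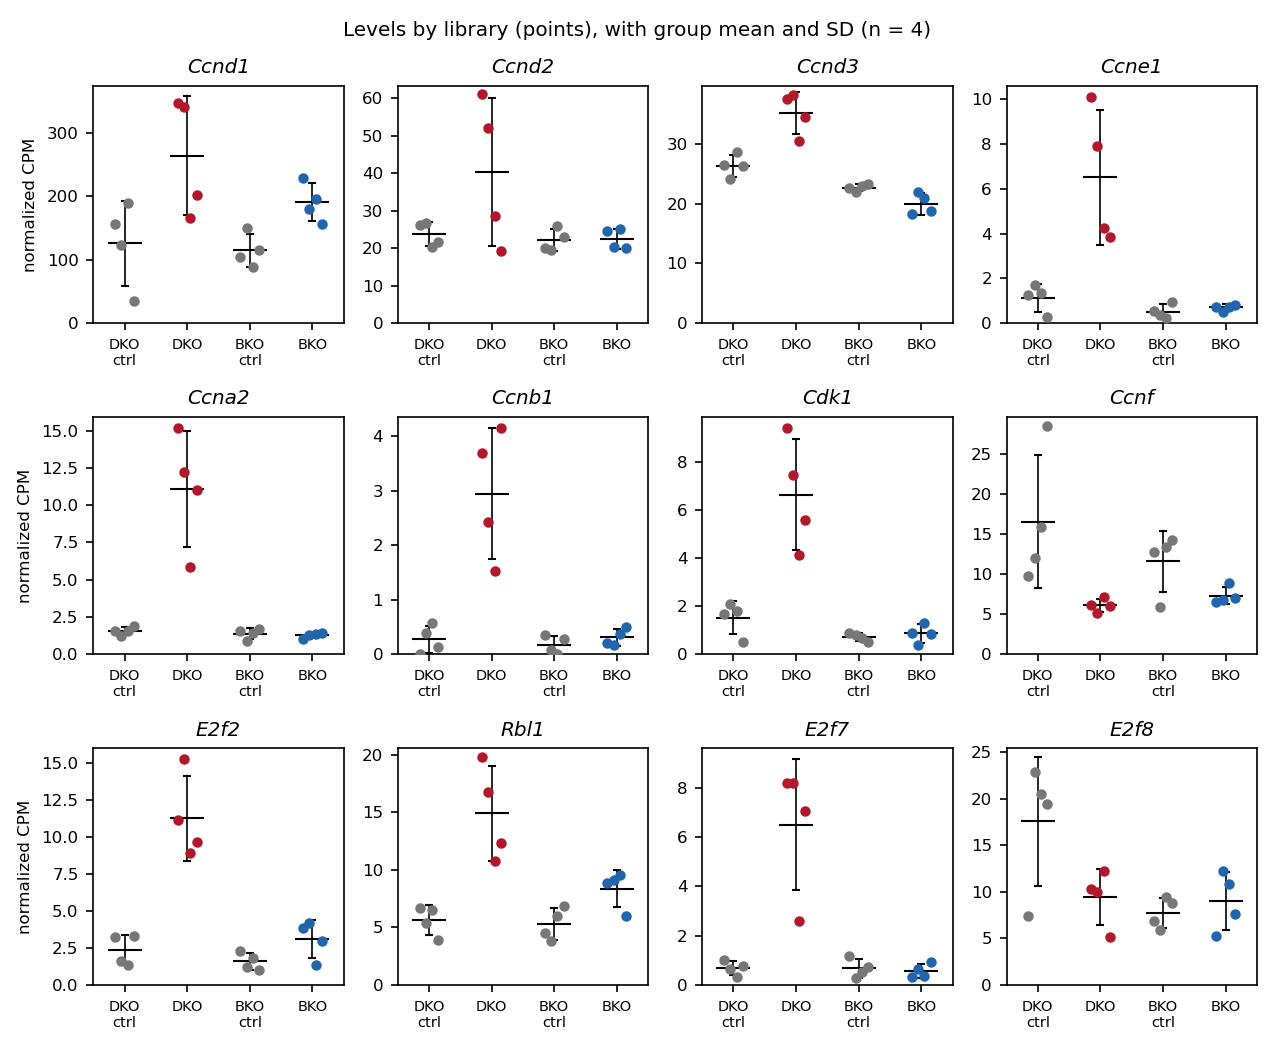
Normalized CPM (y axes, linear, from 0) of 12 members in each library, in the order DKO controls, DKO, BKO controls and BKO; points are libraries, and bars give the group mean and SD (n = 4). Ccnd1 and Ccnd2 are spread in DKO livers, Ccna2 and Ccnb1 lie near 0 in the other 3 groups, and Ccnf and E2f8 lie lower in DKO livers.

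Among the genes of the G1 to S transition, both E-type cyclins and the phosphatase gene Cdc25a were higher, and Cdk2 was not called. Ccne1, the cyclin E1 gene (chromosome 7, 38097984 to 38107534), was at 10.1, 7.92, 4.23 and 3.83 CPM in DKO-7068, DKO-7070, DKO-7112 and DKO-7137, against 1.23, 1.72, 1.35 and 0.252 CPM in the controls. The lowest DKO library was more than 2-fold above the highest control, and the rise was 5.74-fold (log2 fold change 2.48, SE 0.46, adjusted p = 0.00235 by edgeR). Ccne2, which encodes cyclin E2 (chromosome 4, 11191351 to 11204779), was at 5.01, 5.67, 1.85 and 6.11 CPM against 1.79, 2.86, 1.79 and 2.02 CPM. Library DKO-7112 lay inside the control range (log2 fold change 1.13, SE 0.36, adjusted p = 0.0313 by edgeR). The Ccne2 call ended without any 1 of DKO-7068, DKO-7070, DKO-7137, WT-7067, WT-7114 and WT-7139, with adjusted p between 0.0673 and 0.0853, with voom, and with DKO-7068 and DKO-7070 summed. Cdc25a, whose product activates CDK2 (chromosome 9, 109875579 to 109893895), was at 11.9, 9.45, 13.2 and 8.08 CPM against 6.49, 7.83, 5.72 and 4.04 CPM (log2 fold change 0.82, SE 0.23, adjusted p = 0.0179 by edgeR). The groups were apart by a narrow margin, and the call ended without DKO-7068 (adjusted p = 0.0562) or DKO-7112 (0.0504). Cdk2 itself, the partner of the E cyclins, was at 7.15 to 10.4 CPM against 6.94 to 12.6 CPM (log2 fold change -0.17, SE 0.20, adjusted p = 0.555 by edgeR).

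Of the 6 genes tested among the cyclins, kinase and phosphatases of S phase and mitosis, 5 were higher and Ccnf was lower. Ccna2, the cyclin A2 gene (chromosome 3, 36564865 to 36572150), was at 15.2, 12.2, 5.86 and 10.98 CPM in DKO-7068, DKO-7070, DKO-7112 and DKO-7137, against 1.57, 1.24, 1.57 and 1.89 CPM in the controls. This was a 7.06-fold rise with no overlap (log2 fold change 2.83, SE 0.31, adjusted p = 9.26e-05 by edgeR). Ccnb1, which encodes the mitotic cyclin B1 (chromosome 13, 100778650 to 100786570), was at 3.70, 2.43, 1.52 and 4.14 CPM against 0, 0.382, 0.561 and 0.126 CPM. The controls held 10 counts in all and the DKO libraries 126 (log2 fold change 3.37, SE 0.59, adjusted p = 0.00148 by edgeR). The genome carries 5 near-identical copies of Ccnb1 (at least 95% identity over 200 bases), so its counts depend on how shared reads were treated. Ccnb2, the cyclin B2 gene (chromosome 9, 70407692 to 70421547), was even across DKO libraries at 4.68, 5.67, 5.54 and 4.97 CPM, against 1.90, 1.72, 0.785 and 0.883 CPM (log2 fold change 1.95, SE 0.29, adjusted p = 0.000632 by edgeR). Cdk1, the kinase of both cyclin A and cyclin B (chromosome 10, 69335146 to 69352938), was at 9.44, 7.47, 4.12 and 5.60 CPM against 1.68, 2.1002, 1.79 and 0.505 CPM. Its rise was 4.38-fold, again without overlap (log2 fold change 2.105, SE 0.38, adjusted p = 0.00171 by edgeR).

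Cdc25b, which encodes a phosphatase that activates CDK1 at the entry to mitosis (chromosome 2, 131186949 to 131198497), was at 3.61, 3.87, 3.15 and 3.21 CPM against 1.01, 0.859, 2.58 and 1.77 CPM (log2 fold change 1.17, SE 0.34, adjusted p = 0.0209 by edgeR). The call ended without DKO-7068, DKO-7070, WT-7067 or WT-7069 (adjusted p between 0.0523 and 0.0608). Its relative Cdc25c was too low for the count filter, with 12, 4, 13 and 7 counts in the DKO libraries and 2 counts in 1 of the 4 controls. In a fit without the filter Cdc25c was called (log2 fold change 3.66, SE 0.91, adjusted p = 0.00822 by edgeR). Ccnf went the other way. This gene encodes cyclin F, a substrate adaptor of an SCF ubiquitin ligase that binds no CDK (chromosome 17, 24222198 to 24251484). It was at 6.16, 5.13, 7.06 and 6.01 CPM in DKO livers and at 9.74, 12.03, 15.8 and 28.4 CPM in the controls. All DKO libraries lay below all controls, with a 2.71-fold difference (log2 fold change -1.43, SE 0.31, adjusted p = 0.00545 by edgeR).

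The promoters of these genes are shown because genes of late S phase and mitosis are known to share a CHR element (TTTGAA or TTCGAA) and CCAAT boxes, through which the MuvB complexes and NF-Y act. Windows of 250 bases, from RefSeq on GRCm38.p6, run from 220 bases before the annotated start site to 30 bases from it, 5′ to 3′ on the strand of the gene. Capitals mark CHR elements, CCAAT boxes (ATTGG on the other strand) and E2F sites (TTTCCCGC, TTTCGCGC, TTTGCCGC or TTTGGCGC), each searched on both strands. The first 3 windows belong to cyclin and Cdk1 genes that rose, and the fourth to Ccnf, which fell and was added after its values were seen.
Ccnb1 (chr13:100786457-100786706, minus strand): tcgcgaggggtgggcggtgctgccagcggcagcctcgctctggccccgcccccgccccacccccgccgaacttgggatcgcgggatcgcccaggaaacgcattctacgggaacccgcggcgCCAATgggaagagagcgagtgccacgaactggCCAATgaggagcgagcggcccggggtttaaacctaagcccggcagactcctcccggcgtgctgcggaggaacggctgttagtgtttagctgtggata
Ccnb2 (chr9:70421525-70421774, minus strand): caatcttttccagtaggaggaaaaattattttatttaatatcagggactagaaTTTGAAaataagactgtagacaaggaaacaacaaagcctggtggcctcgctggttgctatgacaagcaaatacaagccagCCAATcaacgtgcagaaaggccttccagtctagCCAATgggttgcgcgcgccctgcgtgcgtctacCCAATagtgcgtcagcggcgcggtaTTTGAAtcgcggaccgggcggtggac
Cdk1 (chr10:69352883-69353132, minus strand): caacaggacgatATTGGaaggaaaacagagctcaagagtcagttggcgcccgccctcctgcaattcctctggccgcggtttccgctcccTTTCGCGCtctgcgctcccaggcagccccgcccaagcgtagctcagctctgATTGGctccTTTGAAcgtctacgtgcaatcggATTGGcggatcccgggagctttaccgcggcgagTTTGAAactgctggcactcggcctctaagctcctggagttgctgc
Ccnf (chr17:24251380-24251629, minus strand): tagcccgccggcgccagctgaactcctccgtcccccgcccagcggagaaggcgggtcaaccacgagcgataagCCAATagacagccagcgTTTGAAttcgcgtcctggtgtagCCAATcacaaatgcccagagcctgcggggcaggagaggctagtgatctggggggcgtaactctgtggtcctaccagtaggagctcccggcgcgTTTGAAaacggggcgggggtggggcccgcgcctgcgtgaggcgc
The Ccnb2 and Cdk1 windows hold a TTTGAA within 15 bases of the start site and 3 CCAAT boxes each, and Cdk1 also holds the E2F site TTTCGCGC. The Ccnb1 window holds 2 CCAAT boxes and none of the CHR letters searched. Ccnf, with the opposite change, holds 2 TTTGAA elements, 1 of them 14 bases before the start site, and 2 CCAAT boxes.

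All 3 activating E2F genes were higher in DKO livers. E2f1 (chromosome 2, 154559407 to 154569892) was at 10.6, 9.72, 5.97 and 7.56 CPM in DKO-7068, DKO-7070, DKO-7112 and DKO-7137, against 4.37, 3.25, 3.25 and 1.89 CPM in the controls (log2 fold change 1.40, SE 0.27, adjusted p = 0.00248 by edgeR). E2f2 (chromosome 4, 136172394 to 136196057) rose most, at 11.2, 15.3, 8.90 and 9.64 CPM against 3.25, 1.62, 1.35 and 3.28 CPM (log2 fold change 2.26, SE 0.31, adjusted p = 0.00033 by edgeR). Neither gene overlapped between the groups, and per kilobase of exon they rose from 1.01 and 0.486 CPM to 2.68 and 2.30 CPM, while E2f3 stood at 3.58 CPM per kilobase in DKO livers. E2f3 (chromosome 13, 29906575 to 29986063) was at 22.5, 19.0, 21.2 and 15.02 CPM against 15.002, 14.9, 14.6 and 8.71 CPM. Its lowest DKO library all but touched the highest control, and the adjusted p lay at the threshold (log2 fold change 0.54, SE 0.19, adjusted p = 0.0499 by edgeR). The E2f3 call ended without any 1 library other than DKO-7137, with adjusted p between 0.0606 and 0.146, with DESeq2 size factors, and with DKO-7068 and DKO-7070 summed. Without WT-7139, the low control, E2f3 was at a log2 fold change of 0.38.

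**Figure D3:**
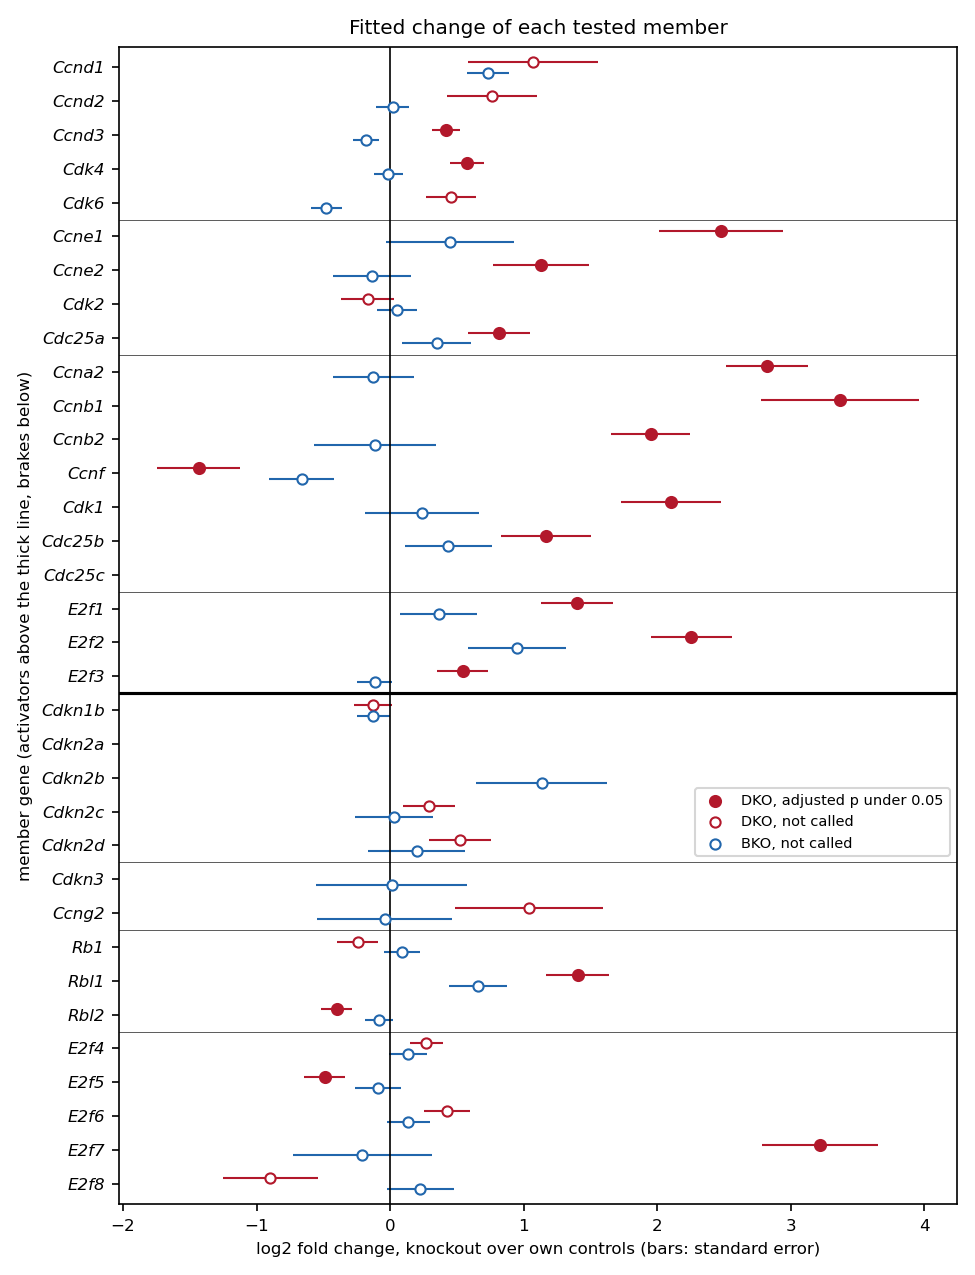
Fitted log2 fold change (x axis) of each tested member (y axis, by role), DKO over its controls in red and BKO over its controls in blue; bars are standard errors, and filled points passed an adjusted p under 0.05. Filled points reach 3.37 for Ccnb1 and -1.43 for Ccnf, and every BKO point is open.

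The CDK inhibitors, the first group of brakes, had 0 of 3 tested members called in DKO livers by edgeR, DESeq2 or voom, and 1 of the 3, Cdkn2d, had an unadjusted p under 0.05. Cdkn1b, which encodes the cyclin E and CDK2 inhibitor p27, was at 19.3 to 24.5 CPM in DKO livers and 18.4 to 27.4 CPM in controls (log2 fold change -0.13, SE 0.14, adjusted p = 0.515 by edgeR). Cdkn2c, the p18 gene, was at 4.87 to 6.49 against 3.82 to 5.93 CPM (log2 fold change 0.29, adjusted p = 0.28 by edgeR). Cdkn2d, the p19INK4D gene, was at 2.63, 2.88, 2.50 and 3.21 CPM against 1.79, 1.62, 2.13 and 2.27 CPM, without overlap but below the threshold of the test (log2 fold change 0.52, adjusted p = 0.109 by edgeR).

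The INK4 genes Cdkn2a and Cdkn2b, whose products bind CDK4 and CDK6, were too low for the count filter in DKO livers. Cdkn2a, which also encodes the p53 activator ARF, had 2, 8, 3 and 0 counts in DKO-7068, DKO-7070, DKO-7112 and DKO-7137 and 0 counts in each control. Set against 3 counts over the control group, the 13 DKO counts of Cdkn2a stood 3.73-fold higher. That figure allows for counting error in the controls only. The fit without the filter did not call Cdkn2a (adjusted p = 0.0507 by edgeR) or Cdkn2b (log2 fold change 1.04, adjusted p = 0.152). Without DKO-7137, its lowest DKO library, Cdkn2b passed the filter and was called (1.31, SE 0.39, adjusted p = 0.0270). Cdkn2b had 15, 13, 13 and 4 counts in DKO libraries and 3 to 5 counts in each control.

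Cdkn3, which encodes a phosphatase that acts on CDKs, was also below the filter, with 7, 8, 12 and 5 counts in DKO libraries and 3 counts over the 4 controls. It was called in the fit without the filter (log2 fold change 3.02, SE 0.74, adjusted p = 0.00714 by edgeR). Ccng2, the gene of the inhibitory cyclin G2, was led by 1 library in each group, with 24.6, 18.1, 20.2 and 62.9 CPM in DKO livers and 8.17, 10.98, 11.2 and 31.0 CPM in controls. The groups overlapped through WT-7139 (log2 fold change 1.04, SE 0.55, adjusted p = 0.184 by edgeR). Without DKO-7137 the change was 0.46 (adjusted p = 0.466), and without WT-7139 it was 1.62 and passed (adjusted p = 0.0381).

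Of the 3 pocket proteins of the RB family, which bind and silence E2F factors, 1 was called higher, 1 lower and 1 was not called. Rbl1, the gene of p107 (chromosome 2, 157145893 to 157204534), was at 19.8, 16.7, 10.7 and 12.3 CPM in DKO-7068, DKO-7070, DKO-7112 and DKO-7137, against 6.72, 5.35, 6.51 and 3.91 CPM in the controls. It rose 2.65-fold without overlap (log2 fold change 1.41, SE 0.24, adjusted p = 0.00118 by edgeR). Rbl2, the gene of p130, the pocket protein of resting cells (chromosome 8, 91070057 to 91123844), was at 40.7, 40.1, 42.3 and 46.8 CPM against 50.04, 54.99, 67.3 and 52.0 CPM. All DKO libraries were lower (log2 fold change -0.40, SE 0.12, adjusted p = 0.0208 by edgeR), though the call ended without DKO-7068 (adjusted p = 0.0504) and with total-count scaling. Rb1 itself was at 12.7 to 19.5 against 17.5 to 21.8 CPM (log2 fold change -0.24, SE 0.15, adjusted p = 0.254 by edgeR). Its log2 ratio of mean CPM was -0.58 among libraries numbered 70xx and 0.07 among those numbered 71xx. Each rests on few libraries, and a difference between them was not tested. Per kilobase of exon the order in controls was Rbl2 at 7.42, Rb1 at 3.18 and Rbl1 at 0.938 CPM, and in DKO livers Rbl1 stood at 2.49 and Rb1 at 2.70 CPM per kilobase.

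Of the 5 repressive E2F genes, E2f7 was called higher and E2f5 lower. E2f7 and E2f8 encode atypical E2Fs that bind DNA without a DP partner and repress E2F target genes, and in liver they are known for their part in hepatocyte polyploidy. E2f7 (chromosome 10, 110745439 to 110787384) was at 8.21, 8.19, 2.61 and 7.05 CPM in DKO-7068, DKO-7070, DKO-7112 and DKO-7137, against 1.01, 0.668, 0.337 and 0.757 CPM in the controls. It rose 9.41-fold without overlap (log2 fold change 3.22, SE 0.43, adjusted p = 0.000321 by edgeR). E2f8 (chromosome 7, 48866429 to 48881596) pointed the other way, at 10.3, 9.99, 12.3 and 5.18 CPM against 7.39, 22.8, 20.5 and 19.4 CPM. Only WT-7067 of the controls fell into the DKO range, and E2f8 was not called (log2 fold change -0.90, SE 0.36, adjusted p = 0.0804 by edgeR). It was called without WT-7067 (-1.16, adjusted p = 0.00702), by DESeq2 and in the fit of all 16 libraries.

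The promoter windows of this pair are shown because the paired genes pointed in opposite directions, a choice made after their values were seen. Source, length and capitals are as above, and GCGGGAAA and TTCAAA are the motifs read on the other strand.
E2f7 (chr10:110745219-110745468, plus strand): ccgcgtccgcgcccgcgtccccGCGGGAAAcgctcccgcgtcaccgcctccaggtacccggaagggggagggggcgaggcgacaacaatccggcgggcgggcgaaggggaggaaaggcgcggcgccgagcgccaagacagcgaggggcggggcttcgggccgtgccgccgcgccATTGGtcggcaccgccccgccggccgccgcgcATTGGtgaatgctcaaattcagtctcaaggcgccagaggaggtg
E2f8 (chr7:48881567-48881816, minus strand): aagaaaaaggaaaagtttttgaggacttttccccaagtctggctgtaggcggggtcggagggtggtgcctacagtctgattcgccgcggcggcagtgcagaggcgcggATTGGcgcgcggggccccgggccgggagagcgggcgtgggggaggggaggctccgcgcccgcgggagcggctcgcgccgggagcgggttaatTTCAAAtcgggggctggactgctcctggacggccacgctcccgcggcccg
The E2f7 window holds an E2F site and 2 CCAAT boxes, and the E2f8 window a CHR element and 1 CCAAT box.

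E2f5, a repressor that binds p130 (chromosome 3, 14578641 to 14606309), was at 6.73, 7.56, 5.43 and 6.63 CPM in DKO livers against 9.96, 8.69, 8.97 and 9.46 CPM. It was lower in all 4 (log2 fold change -0.49, SE 0.15, adjusted p = 0.0295 by edgeR), and the call ended without DKO-7068, DKO-7112, WT-7067 or WT-7139 (adjusted p between 0.0542 and 0.0719) and with total-count scaling. E2f4, the main E2F of resting cells, was at 20.6 to 27.7 against 19.2 to 22.8 CPM (log2 fold change 0.27, adjusted p = 0.119 by edgeR). E2f6, a repressor that needs no pocket protein, was at 13.8 to 22.8 against 10.9 to 15.002 CPM (log2 fold change 0.43, adjusted p = 0.0817 by edgeR), and passed without DKO-7112 (0.50, adjusted p = 0.0356). With total-count scaling, which moved the median of all genes from 0.02 to 0.20, E2f4, E2f6 and Cdk6 were called higher, and the calls of E2f5 and Rbl2 ended.

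Overlapping genes limit some of these values, since no source used here states whether counting used the strand. Of the 34 members, 19 overlap another annotated gene, 17 of them on the opposite strand. Of the 7 tested partners of members called in DKO livers, none was called in the direction of its member. Ints8, opposite Ccne2, was at a log2 fold change of -0.19 (adjusted p = 0.338 by edgeR), Exosc9, opposite Ccna2, at 0.20 (adjusted p = 0.515), and Spef1, opposite Cdc25b, at -0.28 (adjusted p = 0.658). Tspan31, opposite Cdk4, fell by 0.82 (adjusted p = 0.000745 by edgeR) while Cdk4 rose. Bysl, opposite Ccnd3, was at 0.29 (adjusted p = 0.16) and Aktip, opposite Rbl2, at -0.10 (adjusted p = 0.644). 1810022K09Rik, opposite E2f5, rose by 0.71 (adjusted p = 0.00998 by edgeR) while E2f5 fell. Ccnd3 and Cdk6 each have 1 near-identical copy elsewhere in the genome, so their counts also depend on how shared reads were treated.

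In livers lacking ARID1B alone, 0 of the 31 members tested were called by edgeR. Over all 14061 genes tested, 0.185% were called higher and 0.398% lower, so few calls were made of any kind. At an unadjusted p under 0.05, 4 members pointed up (Ccnd1, E2f2, Rbl1 and Cdkn2b) and 2 down (Cdk6 and Ccnf). The share of all genes at that threshold was not computed, so such counts have nothing to be set against. DESeq2 called Ccnd1 higher and Cdk6 lower, and voom called 0. Ccnb1, Cdc25c and Cdkn2a were not tested. Of the marker lists of other cell types 0 genes were called in BKO livers by edgeR, and 4 of 7 tested cholangiocyte markers were lower at an unadjusted p under 0.05, 2 of them called by DESeq2.

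Ccnd1 had the smallest p of the members, at 229, 181, 196 and 157 CPM in F1, F3, F4 and F6, against 105, 149, 89.0 and 116 CPM in the controls F2, F5-2, F5 and F7. Each BKO library lay above each control, as in 3.64% of all genes tested, and the rise was 1.66-fold (log2 fold change 0.73, SE 0.16, adjusted p = 0.0768 by edgeR). Without F5-2 the gene was called (0.89, adjusted p = 0.0172), and it was also called when F5 and F5-2, which may come from 1 animal, were summed. Cdk6 was at 14.8, 16.1, 17.7 and 17.6 CPM against 21.7, 27.7, 20.9 and 21.9 CPM. All BKO libraries were below all controls, as in 3.36% of genes, but the test was not passed (log2 fold change -0.48, SE 0.12, adjusted p = 0.111 by edgeR).

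Rbl1 was at 8.83, 9.11, 9.56 and 5.998 CPM in F1, F3, F4 and F6 against 4.56, 3.83, 5.996 and 6.91 CPM in F2, F5-2, F5 and F7 (log2 fold change 0.66, SE 0.21, adjusted p = 0.248 by edgeR). E2f2 was at 3.87, 4.21, 1.37 and 2.97 CPM against 2.29, 1.19, 1.84 and 1.05 CPM (log2 fold change 0.95, SE 0.37, adjusted p = 0.336 by edgeR). In each, 1 BKO library, F6 for Rbl1 and F4 for E2f2, lay among the controls. Ccnf was at 6.52, 6.78, 8.89 and 6.94 CPM against 12.8, 5.90, 13.3 and 14.3 CPM (log2 fold change -0.66, SE 0.24, adjusted p = 0.317 by edgeR). Control F5-2 alone was low, and without it Ccnf was called (-0.88, adjusted p = 0.0275). Of the other members with the largest rises in DKO livers, Ccnb1 stood at 0.305 ± 0.150 CPM in BKO livers against 0.173 ± 0.167 CPM, on 38 and 20 counts and untested, and Ccne1 at 0.698 ± 0.132 against 0.514 ± 0.317 CPM (adjusted p = 0.781 by edgeR). Ccna2 stood at 1.25 ± 0.159 against 1.38 ± 0.348 CPM, Ccnb2 at 0.777 ± 0.409 against 0.825 ± 0.282 CPM, and E2f7 at 0.577 ± 0.283 against 0.671 ± 0.385 CPM.

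The effects of the knockouts were compared directly as DKO over its controls minus BKO over its controls. Of 31 members tested, 8 had a log2 fold change called higher in DKO than in BKO livers, against 11.0% of 14050 genes tested. These were Ccnd3, Cdk4, Cdk6, Ccne1, Ccna2, Ccnb2, Cdk1 and E2f7. By edgeR 0 members had one called lower in DKO than in BKO livers, against 11.5% of genes. At an unadjusted p under 0.05 there were 2 (Rbl2 and E2f8), and 0 were called by DESeq2 or voom. Among these 8, E2f7 differed most (difference 3.40 on the log2 scale, SE 0.69, adjusted p = 0.00207 by edgeR), followed by Ccna2 (2.92, SE 0.40, adjusted p = 7.51e-05), Ccnb2 (2.05, SE 0.54, adjusted p = 0.0114) and Ccne1 (2.01, SE 0.67, adjusted p = 0.0381). Cdk1 differed by 1.85 (SE 0.57, adjusted p = 0.0258). For Cdk6 the difference of 0.90 (SE 0.23, adjusted p = 0.00833 by edgeR) joined a higher value in DKO livers and a lower one in BKO livers, each uncalled. Ccnd3 and Cdk4 differed by 0.57 and 0.56. Cdkn3, below the count filter in this fit, was called in the fit without it (3.06, SE 1.00, adjusted p = 0.0416 by edgeR). The Ccne1 difference lost its call without any 1 of DKO-7068, DKO-7070, the 3 controls WT-7067, WT-7114 and WT-7139, F1, F2, F3 and F7 (adjusted p between 0.0513 and 0.1004), and Cdk1 lost it without DKO-7068 (0.0619) or F2 (0.0526).

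For Ccnd1 the effects, 1.07 in DKO and 0.73 in BKO livers, were not told apart (difference 0.31, SE 0.55, adjusted p = 0.74 by edgeR). The same held for E2f1 (difference 1.01, adjusted p = 0.0844), E2f2 (1.28, adjusted p = 0.0827), Rbl1 (0.72, adjusted p = 0.133), Ccnb1 (2.59, SE 1.07, adjusted p = 0.092) and Ccnf (-0.80, adjusted p = 0.192). Several of these turned on 1 library. E2f1 was called without F4 (1.34, adjusted p = 0.0127), Ccnb1 without F5 (2.98, adjusted p = 0.0362), E2f8 without WT-7067 (-1.42, adjusted p = 0.0160), and Ccne2 without DKO-7112 (1.49, adjusted p = 0.00572). Without F2 the Ccnb1 difference was 1.91.

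Other genes of the pathway were counted list by list, in lists also chosen with earlier results of these data known. Over all genes tested, 19.2% were called higher and 16.6% lower in DKO livers, and 0.185% and 0.398% in BKO livers. A higher log2 fold change in DKO than in BKO livers was called for 11.0%. Of 25 genes of the G1 to S transition known to carry E2F sites, 12 were higher and 2 lower in DKO livers, with a median log2 fold change of 0.78. Uhrf1, which maintains DNA methylation through replication, was at 16.8 ± 8.23 against 2.004 ± 1.26 CPM (log2 fold change 3.05, adjusted p = 0.00146 by edgeR), the licensing factor gene Cdc6 at 3.03 ± 1.56 against 0.439 ± 0.236 CPM and the replication helicase gene Gins2 at 2.74 ± 1.63 against 0.538 ± 0.284 CPM. This list was the one with calls in BKO livers as well, where 4 of 25 were higher and none lower, with a median of 0.68. There Mcm4, a subunit of the replicative helicase, was at 13.95 ± 2.33 against 6.33 ± 1.604 CPM (log2 fold change 1.14, adjusted p = 0.0257 by edgeR) and Uhrf1 at 3.71 ± 1.36 against 0.856 ± 0.380 CPM (2.11, adjusted p = 0.0257). Chaf1a and Mcm2 were the other 2, named here after their values were seen. DESeq2 called 8 of the 25 higher in BKO livers and voom 4. In the test of the difference 0 of these 25 genes were called by edgeR, DESeq2 or voom, with 1 at an unadjusted p under 0.05 in each direction.

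All 19 genes of G2 and mitosis were higher in DKO livers, with a median of 2.66. For 16 of them the log2 fold change was called higher in DKO than in BKO livers. Top2a, the topoisomerase of chromosome condensation, was at 31.3 ± 7.07 against 4.13 ± 0.313 CPM, Plk1, a kinase of mitosis, at 5.10 ± 0.466 against 0.334 ± 0.0992 CPM and the spindle midzone gene Prc1 at 10.8 ± 2.01 against 1.45 ± 0.232 CPM. In BKO livers 0 of 18 tested were called by edgeR, DESeq2 or voom, with 3 at an unadjusted p under 0.05, all upward. For that threshold the share of all genes was not computed. Among these, Mki67 was at 10.2 ± 1.55 against 6.41 ± 1.65 CPM and Top2a at 4.59 ± 0.878 against 2.41 ± 1.15 CPM.

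**Figure D4:**
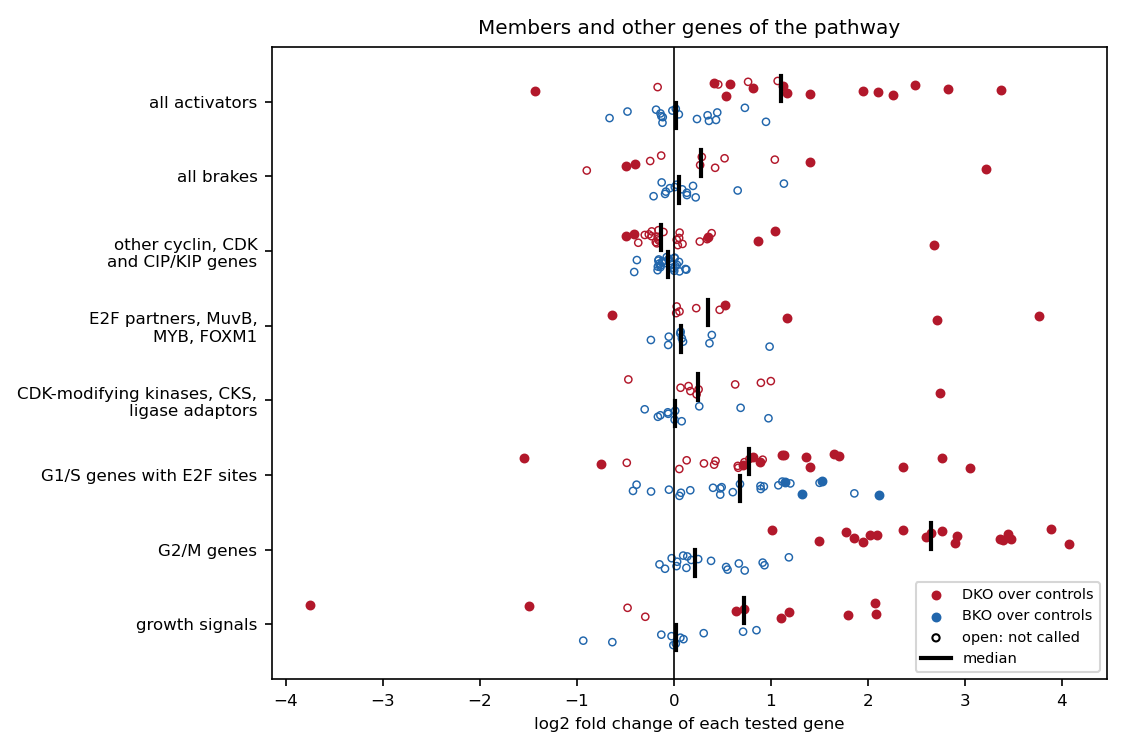
Log2 fold change (x axis) of each tested gene of the activators, the brakes and 6 other lists of the pathway (y axis), DKO in red above BKO in blue; filled points were called and black bars are medians. The G2/M genes lie wholly above 1 in DKO livers with a median of 2.66, and filled blue points appear in the list of G1/S genes.

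Of 10 partners of the E2F and MuvB complexes, 4 were higher and 1 lower in DKO livers, against 19.2% and 16.6% of all genes tested. The MYB family gene Mybl1 was at 19.4 ± 4.76 against 1.44 ± 0.689 CPM (log2 fold change 3.76, adjusted p = 2.13e-05 by edgeR), and Foxm1, a driver of mitotic gene expression, at 8.52 ± 2.14 against 1.28 ± 0.815 CPM. Rbbp4, a histone-binding subunit of MuvB and other complexes, was lower, at 42.8 ± 3.70 against 66.5 ± 10.9 CPM. In BKO livers Foxm1 was at 1.38 ± 0.363 against 0.697 ± 0.142 CPM and was not called (adjusted p = 0.266 by edgeR). Of 10 tested CDK-modifying kinases, CKS proteins and ligase adaptors, 1 was higher in DKO livers, Cdc20, the mitotic activator of the anaphase-promoting complex, at 7.27 ± 1.88 against 1.07 ± 0.413 CPM. Wee1, the kinase that CDC25 phosphatases oppose, was at 22.2 ± 7.80 against 30.7 ± 10.2 CPM (adjusted p = 0.286 by edgeR).

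Of 26 other cyclin, CDK and CIP/KIP genes tested, 4 rose and 2 fell in DKO livers, against 19.2% and 16.6% of all genes tested. Their median log2 fold change was -0.13. Cdkn1a, the p21 gene and a target of p53, was at 113, 73.4, 62.8 and 135 CPM in DKO livers against 12.2, 6.78, 6.84 and 34.6 CPM (log2 fold change 2.69, SE 0.57, adjusted p = 0.0081 by edgeR), a rise for a CDK inhibitor next to the uncalled Cdkn1b. Ccng1, the cyclin G1 gene, was at 102 ± 24.6 against 49.3 ± 4.16 CPM, and Ccny, the cyclin Y gene, was lower at 65.6 ± 3.55 against 92.0 ± 5.72 CPM. Of 11 tested growth signals that act upstream of cyclin D, 7 were higher and 2 lower. The receptor gene Axl was at 90.8 ± 9.40 against 42.2 ± 6.38 CPM, the EGF family ligand Ereg at 2.38 ± 0.266 against 0.553 ± 0.0761 CPM and Hgf, the hepatocyte growth factor gene, at 39.9 ± 7.46 against 24.2 ± 1.39 CPM. Myc was at 64.8 and 53.7 CPM in DKO-7068 and DKO-7070 and at 17.7 and 29.1 CPM in DKO-7112 and DKO-7137, against 5.26, 24.1, 5.83 and 3.41 CPM (log2 fold change 2.08, adjusted p = 0.0451 by edgeR). Mycn, a relative of Myc, was lower, at 0.493, 0.270, 0.651 and 0.518 CPM in DKO livers against 7.61, 1.72, 14.7 and 2.27 CPM in controls (log2 fold change -3.75, adjusted p = 0.00528 by edgeR). Egfr, the receptor of the EGF family, was lower too, at 258 ± 168 against 723 ± 357 CPM with overlap between the groups (log2 fold change -1.49, adjusted p = 0.0406 by edgeR), and both were named after their values were seen. In BKO livers none of these 4 lists had a call by edgeR, DESeq2 or voom, with 4 genes in all at an unadjusted p under 0.05.

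Promoter motifs were searched in windows of 250 bases before to 50 bases from each start site, for the 26 members with a RefSeq entry. An E2F site was found in 8 of the 26, against 2.26% of 32851 windows of all genes. A CHR element was found in 10, against 19.23% of all windows, and 2 or more CCAAT boxes in 10, against 11.7%. Of the 13 matched members called higher in DKO livers, 6 had an E2F site (Cdc25a, Cdk1, E2f2, E2f3, Rbl1 and E2f7), 5 a CHR element and 7 had 2 or more CCAAT boxes. Of the 8 matched members not called, 1, Cdk2, had an E2F site. For 5 members with several start sites, a match in any window was counted, while the shares over all genes are per window. A match is a string of letters and not a measured site. The E2f1 window (chr2:154569377-154569676) lay wholly inside the annotated gene, which begins at 154569892 on the minus strand. Bases before that point were not searched, so its lack of matches does not describe the whole promoter. The windows of Cdk6, Ccng2 and Cdkn2c also lay inside their annotated genes.

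**Figure D5:**
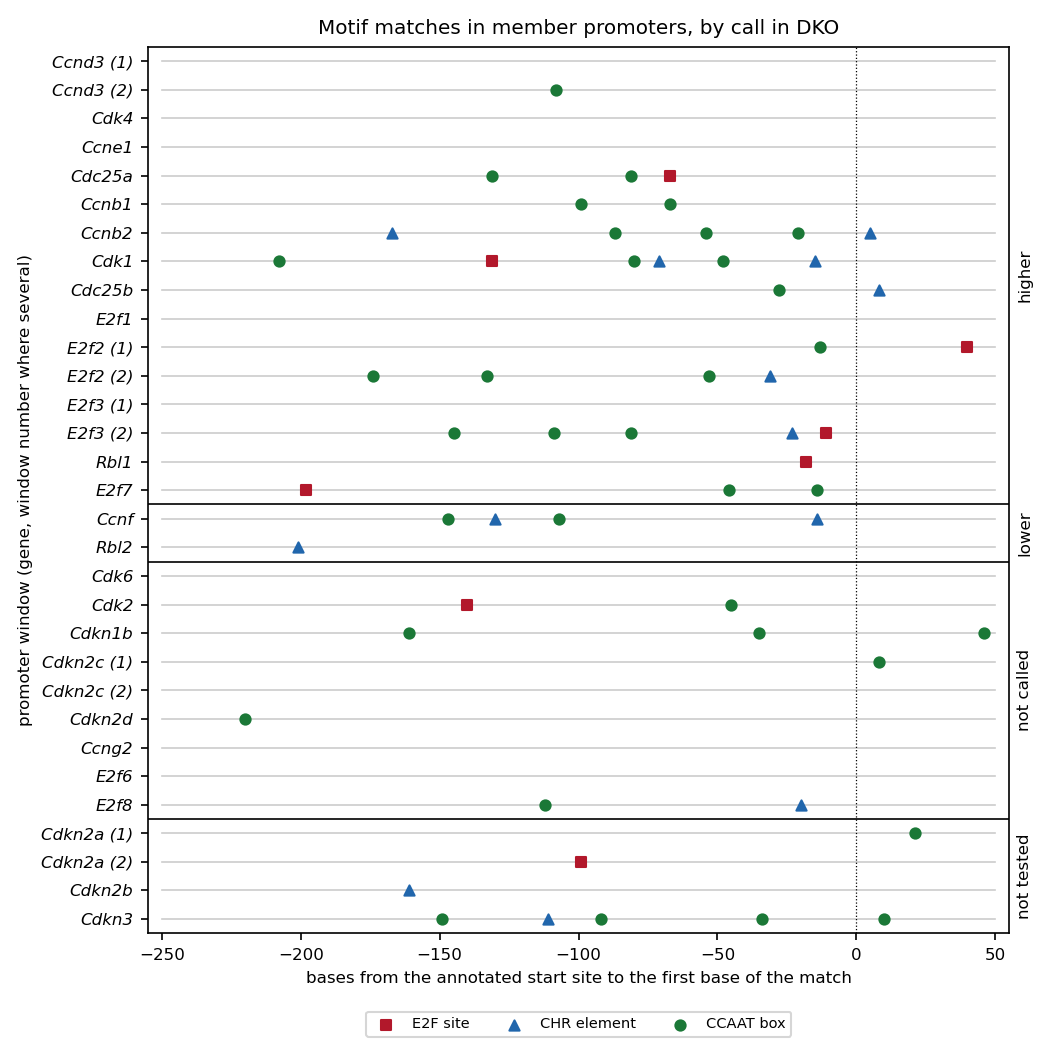
Positions of motif matches (x axis, bases from the start site) in the promoter windows of the 26 matched members (y axis, grouped by their call in DKO livers); squares are E2F sites, triangles CHR elements and circles CCAAT boxes. The Cdk1 row holds matches of all 3 kinds, and the Cdk4, Ccne1 and E2f1 rows are empty. The E2f1 window lies inside its annotated gene.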

How the data were processed

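Liver RNA was extracted with TRIzol and RNeasy columns, and NuGEN's Ovation kit was used for the libraries, per the labels' protocols. Each experiment has 1 deposited table of whole, unnormalized counts per gene. Per the submitters' processing notes, the tools included featureCounts 1.6.2, HISAT2 2.1.0 and Trim Galore 0.4.1, and the builds GRCm38, mm10 and GRCh38 are listed without their roles. Not given in the sources used here: the annotation, the strand setting and how reads shared between genes were handled.

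Groups follow the genotypes in the labels. That libraries come from separate animals rests on the numbers in the library names, read here as animal tags, which the labels do not define. The BKO controls F5 and F5-2 share a tag, so p-values may in part measure technical spread. By chi-square per degree of freedom, F5 and F5-2 (70.0) lay within the range of the other BKO control pairs (33.6 to 72.9). Whether F5 and F5-2 come from the same animal was not tested. DKO-7068 and DKO-7070 have separate tags but were the closest pair of their group (7.32). Their independence was not tested either, and p-values for DKO rest on it. Each table held 24421 rows. In the BKO experiment 27 names had no match in the DKO table, none of them a member, and the joint fit used the 24394 shared genes. The members and lists were chosen with earlier results of these data known.

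The tests used edgeR 4.0.16 in R 4.3.3. Genes passed filterByExpr, libraries were scaled by TMM, and robust quasi-likelihood models were fitted per experiment, or over all 16 libraries where the effects were compared. Adjusted p-values are Benjamini-Hochberg values over all genes tested. Shares over all genes were computed for calls and for groups without overlap, and not for an unadjusted p under 0.05. A standard error is the log2 fold change over the square root of F. Alternatives were DESeq2 1.42.0 (its size factors and its Wald test), limma 3.58.1 with voom, total counts as scaling and no filter. Others were each library left out, a single fit of all 16 libraries and a term for the tag series. The tag series was read from the numbers in the library names, and no label names a batch. The close pair DKO-7068 with DKO-7070 was also summed, and so was F5 with F5-2, which share a tag. The steps were also run on simulated counts, and that run is not used here as evidence for any result. Coordinates and exon lengths are from GENCODE M21 on GRCm38, and near-identical copies were sought with BLAST 2.17.0. Beside the members, named genes were the targeted genes, up to 3 called genes per list by smallest p in DKO, up to 2 by smallest p in BKO, and others marked as chosen later or overlapping a member. The names of some listed genes are not reported here.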

Additional observations from a re-analysis of the deposited data

Results flagged for a closer look

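In 9 of 136 sets of 4 libraries, 1 library stood apart from the other 3 by Dixon's criterion, which chance meets in about 1 of 20 sets. Ccng2 did so in both groups of the DKO experiment, at 62.9 CPM in DKO-7137 (others 18.1 to 24.6) and at 31.0 CPM in control WT-7139 (others 8.17 to 11.2). Control WT-7139 was also lowest for E2f3, at 8.71 CPM, and held the 0.252 CPM of Cdc25c where the other controls had none. DKO-7137 was lowest for Cdk6, at 23.3 CPM (others 30.8 to 32.3). Control F5-2 was highest for Cdk6, at 27.7 CPM (others 20.9 to 21.9), and for E2f6, at 11.1 CPM (others 9.80 to 9.91). At low counts, Cdc25c was at 0.196 CPM in F6 (others 0.145 to 0.153) and Cdkn2a at 0.183 CPM in F4 (others at 0).

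The log2 fold change was higher in DKO than in BKO livers, by the test of the difference, for 8 members. For Cdk6 this joined 0.46 in DKO and -0.48 in BKO livers, each uncalled. On the log2 scale the differences were 0.57 for Ccnd3, 0.56 for Cdk4, 0.90 for Cdk6, 2.01 for Ccne1, 2.92 for Ccna2, 2.05 for Ccnb2, 1.85 for Cdk1 and 3.40 for E2f7.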

How the results depend on the processing

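No value of a called member changed its direction under any alternative tried. Over members and alternatives, 434 of 480 DKO values, 457 of 462 BKO values and 623 of 651 differences kept their side of the threshold. Members called higher in DKO livers numbered 13 to 18 under other scalings, tools and fits, and 11 to 17 with 1 library left out (11 without DKO-7068), against 15. With total counts as scaling, the members called lower in DKO livers were 1, all genes lower in DKO 1269, all genes lower in BKO 86, and the differences 2627 higher and 744 lower. That scaling moved the share of calls that were higher from 53.6% to 72.0% in DKO, from 31.7% to 20.4% in BKO and from 49.1% to 77.9% for the difference. The DESeq2 Wald test called 1 member higher and 1 lower in BKO livers, and 152 genes higher and 203 lower in all. With F5 and F5-2 summed, 1 member was higher in BKO livers. All 16 libraries in one fit gave 13 genes higher and 37 lower in BKO. Leaving out 1 library gave 1 to 3 members lower in DKO, 0 to 1 member higher and 0 to 1 lower in BKO, 0 to 1 with a lower difference, and 4 to 33 genes higher and 13 to 73 lower in BKO. No paired analysis was possible because the tag numbers in the library names of knockouts and controls do not match and no label pairs them. In the DKO experiment Cdc25c, Cdkn2a, Cdkn2b and Cdkn3 rested on 45 counts or fewer per group.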
